A study of Homo sapiens with 30 samples.

Results

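The EGR and NR4A transcription factors, the NAB corepressors and ARC, 10 genes induced when T cells are activated, were followed in Jurkat E6-1, a leukaemia-derived human T cell line. They are EGR1, EGR2, EGR3, EGR4, NAB1, NAB2, NR4A1, NR4A2, NR4A3 and ARC. These 10 were taken by symbol from a table of 54300 symbols, and all 10 were among the 21554 symbols that passed a filter on low counts. KO cells lack isoform 1 of SLAMF6, a lymphocyte receptor of the SLAM family, and are also named SLAMF6∆17-65, and WT cells are unedited. Both lines were sequenced unstimulated at 0 h and stimulated at 6, 12, 24 and 36 h, with 3 RNA libraries for every genotype at every time, 30 in all. The stimulus named is the phorbol ester PMA at 200 ng/ml with the calcium ionophore ionomycin at 300 ng/ml, in a protocol text written for a cytokine assay. Times carry no unit in the labels, and hours were taken from that text. Neither the number of KO clones nor the use of separate cultures for the libraries is stated, so a p-value reflects the spread of these libraries and no more. Overexpression of isoform 3 stands in the series title, but the design text describes a knockout of isoform 1 and was followed here.

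EGR factors are zinc finger proteins that bind GC-rich sites, and their genes are switched on soon after a stimulus without new protein synthesis. PMA acts through protein kinase C and the MAP kinases, which drive EGR genes through serum response factor (SRF) bound to CArG boxes beside ETS-family partners such as ELK1. NAB1 and NAB2 bind EGR1, EGR2 and EGR3 and repress their activity, and NAB2 is itself an EGR target. NR4A receptors need no known ligand, and their activity was not measured here. In mouse T cells NR4A1 is a widely used reporter of antigen receptor signalling, and EGR2, EGR3 and the NR4A receptors are known for limiting activation in anergy and exhaustion. ARC is known mainly from neurons, where in rodents its gene responds to SRF and EGR factors.

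The promoters of 4 members are shown because they carry the sites through which these pathways are known to act. Each line runs from 250 bases before to 50 bases after a RefSeq start on GRCh38.p14, 5′ to 3′ on the strand of the gene. Capitals mark, on either strand, a CArG box (CC, then 6 bases of A or T, then GG), TGACG, the core of the cAMP response element bound by CREB and ATF factors, and GCGNGGGCG, an EGR-type site in which N is any base. The windows are EGR1 at chr5:138465229-138465528 on the plus strand, EGR2 at chr10:62816317-62816616 on the minus strand, NR4A3 at chr9:99821635-99821934 on the plus strand and NAB2 at chr12:57088864-57089163 on the plus strand.
EGR1: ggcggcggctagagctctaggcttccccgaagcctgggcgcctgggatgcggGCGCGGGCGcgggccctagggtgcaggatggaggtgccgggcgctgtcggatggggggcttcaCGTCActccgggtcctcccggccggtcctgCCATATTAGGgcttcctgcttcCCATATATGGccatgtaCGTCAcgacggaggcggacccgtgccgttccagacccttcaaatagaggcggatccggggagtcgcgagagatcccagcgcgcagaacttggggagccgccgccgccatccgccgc
EGR2: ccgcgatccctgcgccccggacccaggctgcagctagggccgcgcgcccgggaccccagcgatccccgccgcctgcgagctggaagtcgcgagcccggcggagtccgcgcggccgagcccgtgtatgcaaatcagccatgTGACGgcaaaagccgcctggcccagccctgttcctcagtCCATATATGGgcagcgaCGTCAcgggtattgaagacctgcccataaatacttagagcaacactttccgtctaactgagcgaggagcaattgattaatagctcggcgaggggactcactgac
NR4A3: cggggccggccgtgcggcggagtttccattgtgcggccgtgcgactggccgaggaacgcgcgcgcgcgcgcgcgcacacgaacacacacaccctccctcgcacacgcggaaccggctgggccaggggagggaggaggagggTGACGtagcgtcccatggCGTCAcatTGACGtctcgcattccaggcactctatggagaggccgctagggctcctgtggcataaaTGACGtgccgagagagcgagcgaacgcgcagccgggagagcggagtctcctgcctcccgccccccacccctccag
NAB2: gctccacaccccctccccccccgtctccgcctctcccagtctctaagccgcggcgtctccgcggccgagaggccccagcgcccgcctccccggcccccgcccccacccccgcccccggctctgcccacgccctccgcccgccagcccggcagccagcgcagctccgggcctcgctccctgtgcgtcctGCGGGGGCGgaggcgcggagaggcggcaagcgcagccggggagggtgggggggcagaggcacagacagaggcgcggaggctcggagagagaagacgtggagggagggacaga

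The EGR1 window holds 2 CArG boxes, 2 TGACG cores and 1 EGR-type site. The EGR2 window holds 1 CArG box and 2 TGACG cores, the NR4A3 window 4 TGACG cores, and the NAB2 window 1 EGR-type site. No 2 of these matches overlap. Of 35116 RefSeq windows of the same length, 1.29% hold a CArG box, 24.6% a TGACG core and 9.43% a GCGNGGGCG site. In all, 12 windows of 7 members were read. No window of EGR3, NR4A2 or ARC was read, so nothing is said here of their sites. Of the windows read but not printed, the 3 NAB1 windows hold 3, 4 and 0 EGR-type sites and 1 TGACG core each. The EGR4 window holds 2 TGACG cores, and the other 2 EGR2 windows hold 1 and 0 EGR-type sites. Both NR4A1 windows hold none of the 3 motifs. A match is a stretch of letters, and binding was not measured here.

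Levels are given as CPM, counts scaled by library total and by TMM, a factor for library composition. Libraries held 5.64 to 28.2 M counts with a median of 20.5 M, and 3 of 30 held under 10 M. Transcripts of SLAMF6, the edited gene, ran from 18.2 to 149 CPM in KO libraries and from 19.0 to 112 CPM in WT libraries over all times. They were higher in KO at 24 h (log2 difference 0.64, SE 0.13, adjusted p = 0.00101 by edgeR) and 36 h (0.40, SE 0.13, adjusted p = 0.033). In a fit of the 24 h libraries alone the 24 h value was 0.64 (adjusted p = 0.0525). At 36 h without C1, C2, C3, C4 or C6 it was 0.38, 0.39, 0.45, 0.38 or 0.35 (adjusted p = 0.113, 0.107, 0.051, 0.103 and 0.141), and without the 3 libraries under 10 M counts it was 0.39 (adjusted p = 0.0934). Counts per gene add up the isoforms, so they do not check the loss of isoform 1. The 11 T cell markers summed to between 3300 and 4780 CPM in KO libraries and between 4110 and 5644 CPM in WT libraries, with none at 0. The sums were lower in KO without overlap at every time. At 0 h they were 3870 to 4044 CPM in KO and 4325 to 4419 CPM in WT. At 6 h they were 3300 to 3610 CPM in KO and 4110 to 4449 CPM in WT, and at 12 h 3975 to 4140 CPM in KO and 4938 to 5247 CPM in WT. At 24 h they were 3942 to 4780 CPM in KO and 5356 to 5644 CPM in WT, and at 36 h 3379 to 3657 CPM in KO and 4394 to 4691 CPM in WT. A sum is weighted to the most abundant markers. Of the 11 markers edgeR called 0, 1, 0, 1 and 1 higher in KO at 0, 6, 12, 24 and 36 h. It called 2, 4, 4, 5 and 5 lower. Of all genes 2.96%, 5.21%, 6.07%, 4.97% and 6.95% were higher and 3.11%, 4.76%, 5.52%, 4.76% and 6.52% lower. The markers' median log2 differences were -0.02, -0.24, -0.24, -0.33 and -0.46. The part of the gap between these sums in the results for the 10 genes was not tested. Over all libraries the sums reached 5.71 CPM for 5 monocyte markers, 33.3 CPM for 4 B cell markers, 6.17 CPM for 4 markers of adherent lines and 0.577 CPM for 3 erythroid markers. Libraries are named by letter and number as in their titles. Up to 24 h the letter is B for KO and A for WT, so letter and genotype cannot be told apart, and at 36 h it is C for both, so letter and time cannot be told apart in any comparison of 36 h with an earlier time. In bulk RNA fewer responding cells and less transcript per cell cannot be told apart.

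Activation raised all 10 members. Within KO, edgeR called 10 of 10 members higher at 6 h, 12 h and 24 h than at 0 h and 9 at 36 h, where 14%, 14.1%, 16.1% and 18.6% of all tested genes were called higher and 27.2%, 27.8%, 32.8% and 36.7% were called in either direction. Within WT, 10 of 10 were higher at 6 h, 12 h and 24 h and 8 at 36 h, where 11.8%, 14.8%, 17.3% and 20.2% of all genes were higher and 22.4%, 30.3%, 34.3% and 39.1% were called. No member was called lower than at 0 h, beside 13.2%, 13.7%, 16.7% and 18% of all genes in KO and 10.5%, 15.6%, 17% and 19% in WT. By 36 h the ARC level was no longer past the threshold in KO (log2 1.41, SE 0.86, adjusted p = 0.214) or WT (0.86, SE 0.73, adjusted p = 0.383), nor was NAB1 in WT (0.26, SE 0.12, adjusted p = 0.0928). NAB1 in WT at 36 h was called in 1 case of leaving out a library, since without C3 it was 0.40 (adjusted p = 0.0167).

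**Figure D1:**
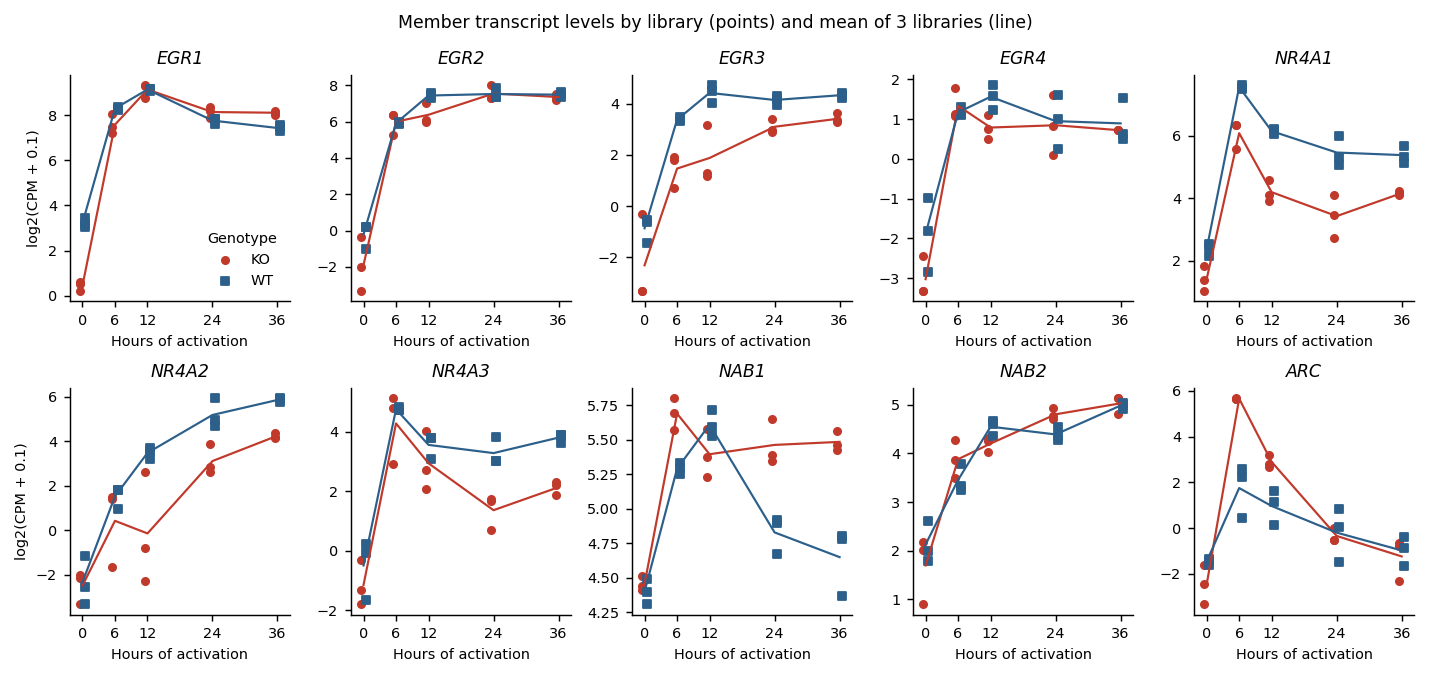
Level of each member on the log2(CPM + 0.1) scale against hours of activation, with KO as red circles and WT as blue squares for single libraries and lines through the means of 3. All 10 members are higher at 6 h than at 0 h, EGR1 and EGR2 are above 100 CPM in every library at 24 h and 36 h, and ARC is below 1 CPM in every library at 36 h.

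Levels of different members are compared per kilobase (kb) of exon. At 6 h in KO the order was EGR1 at 62.6 ± 18.6 CPM per kb, EGR2 at 18.4 ± 6.999, ARC at 16.9 ± 0.256, NAB1 at 10.6 ± 0.831, NR4A1 at 9.51 ± 2.66, NAB2 at 4.99 ± 1.36, NR4A3 at 3.73 ± 2.28, EGR4 at 1.04 ± 0.306, EGR3 at 0.586 ± 0.236 and NR4A2 at 0.464 ± 0.354 (mean ± SD, n = 3). At 6 h in WT it was EGR1 at 99.9 ± 5.53 CPM per kb, NR4A1 at 25.7 ± 1.13, EGR2 at 16.4 ± 0.462, NAB1 at 7.99 ± 0.220, NR4A3 at 4.30 ± 0.163, NAB2 at 3.66 ± 0.763, EGR3 at 2.12 ± 0.121, ARC at 1.32 ± 0.810, EGR4 at 0.905 ± 0.0719 and NR4A2 at 0.725 ± 0.226 (mean ± SD, n = 3). EGR1 led both lines, ARC stood at rank 3 in KO and rank 8 in WT, and NR4A1 at rank 5 in KO and rank 2 in WT. In KO the neighbours EGR2 and ARC, NAB1 and NR4A1, NAB2 and NR4A3, EGR4 and EGR3, and EGR3 and NR4A2 lay within the sum of their SDs. In WT the same held for NR4A3 and NAB2, EGR3 and ARC, ARC and EGR4, and EGR4 and NR4A2. Averaged over the 10 groups the order was EGR1, EGR2, NAB1, NR4A1, NAB2, NR4A2, ARC, EGR3, NR4A3 and EGR4. With the longest transcript as the length, NR4A1 and NAB1 changed places.

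**Figure D2:**
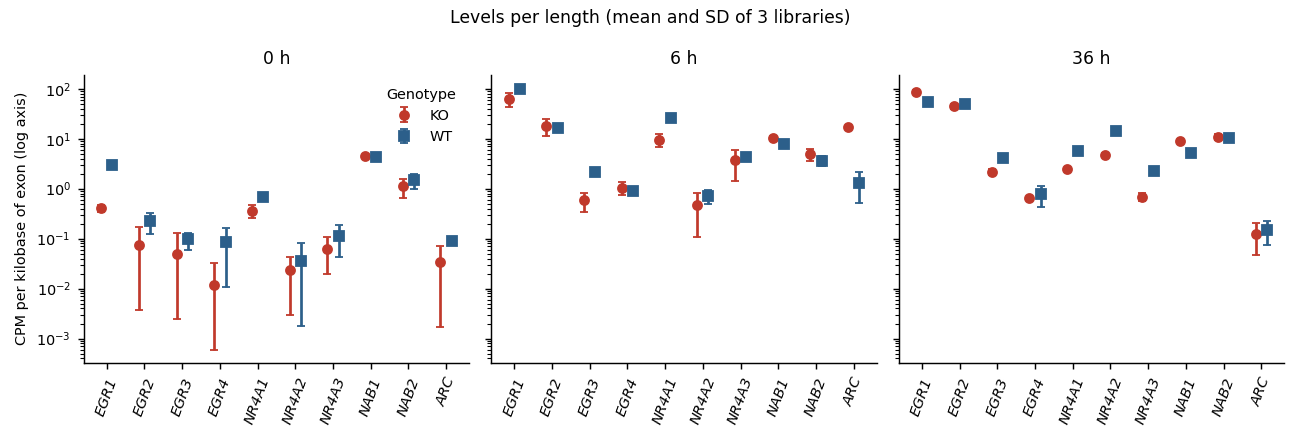
Level of each member in CPM per kilobase of exon (log axis) at 0, 6 and 36 h, with KO as red circles and WT as blue squares, each the mean of 3 libraries with its SD as bars (the lower bar is cut at 5% of the mean where the SD is larger). EGR1 is highest at 6 h in both lines, NAB1 leads at 0 h, and ARC in KO is high at 6 h and low at 0 h and 36 h.

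Genotype went with differences in both directions. At 0 h edgeR called 0 members higher and 1 lower in KO (EGR1), beside 2.96% and 3.11% of all genes (6.07% in all). At 6 h 2 were higher (NAB1 and ARC) and 3 lower (EGR1, EGR3 and NR4A1), beside 5.21% and 4.76% (9.97% in all). At 12 h 1 was higher (ARC) and 4 lower (EGR2, EGR3, NR4A1 and NR4A2), beside 6.07% and 5.52% (11.6% in all). At 24 h 1 was higher (NAB1) and 4 lower (EGR3, NR4A1, NR4A2 and NR4A3), beside 4.97% and 4.76% (9.73% in all). At 36 h 2 were higher (EGR1 and NAB1) and 3 lower (NR4A1, NR4A2 and NR4A3), beside 6.95% and 6.52% (13.5% in all). The members' median log2 difference was -0.02, -0.61, -0.23 and -0.26 at 6, 12, 24 and 36 h, against -0.01, 0.00, -0.01 and 0.00 for all tested genes. No median is given at 0 h, where 5 members had 2 to 16 counts in KO. Over the 5 times NR4A1 was called lower at 4, EGR3 and NR4A2 at 3, and EGR4 and NAB2 were called at none.

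**Figure D3:**
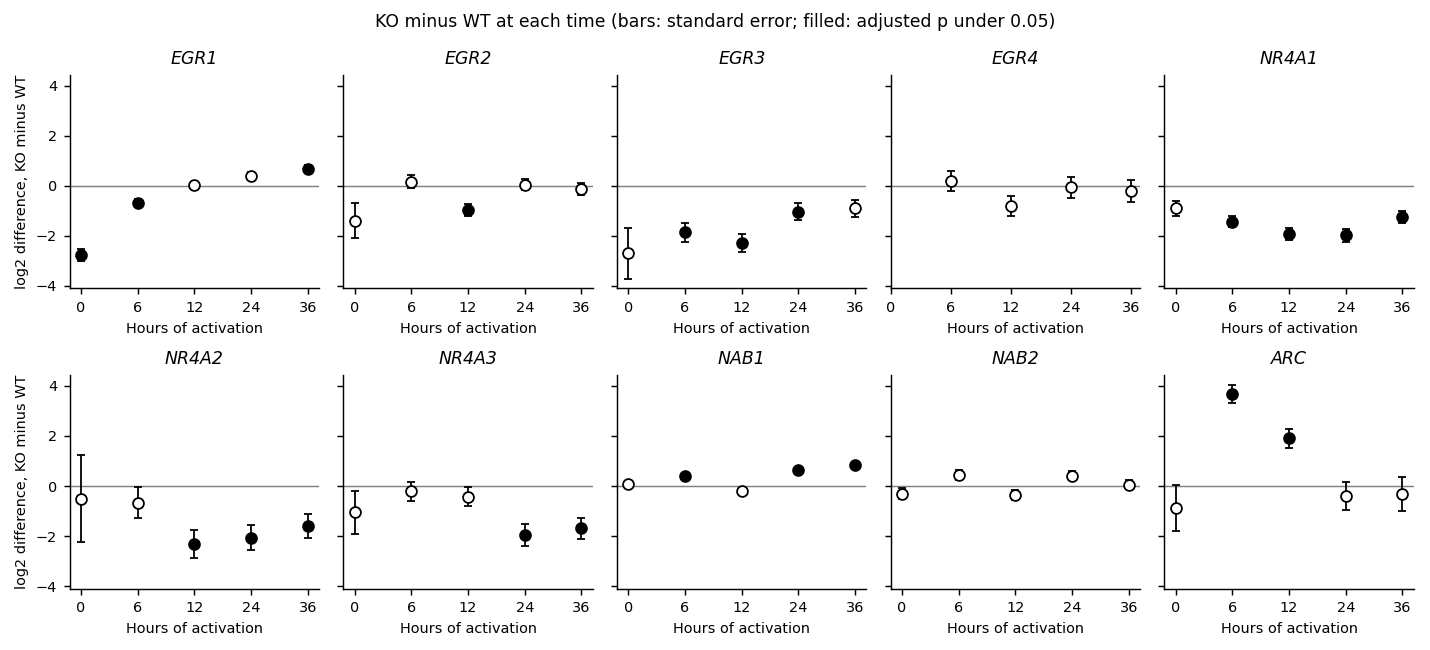
Log2 difference of KO minus WT for each member at 0, 6, 12, 24 and 36 h, with the SE of the fit as bars, filled points for an edgeR adjusted p under 0.05 and open points for others. EGR4 at 0 h is not drawn, since KO held 2 counts. EGR1 is at -2.75 at 0 h and 0.67 at 36 h, NR4A1 lies below 0 at all 5 times, and ARC stands at 3.68 at 6 h.

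EGR1 is the EGR factor best known as a marker of mitogen signalling. In KO libraries EGR1 stood at 1.40, 1.06 and 1.35 CPM at 0 h, 179, 262 and 149 CPM at 6 h, 437, 648 and 624 CPM at 12 h, 293, 328 and 231 CPM at 24 h, and 259, 274 and 292 CPM at 36 h. In WT libraries EGR1 stood at 8.86, 10.7 and 8.14 CPM at 0 h, 312, 332 and 297 CPM at 6 h, 566, 544 and 576 CPM at 12 h, 229.6, 193 and 229 CPM at 24 h, and 155, 176 and 188 CPM at 36 h. All 3 KO libraries lay below all WT libraries at 0 h and 6 h, the groups overlapped at 12 h, and all KO libraries lay above all WT libraries at 24 h and 36 h. Unstimulated KO cells had 6.71-fold less EGR1 transcript than unstimulated WT cells (log2 difference -2.75, SE 0.24, edgeR adjusted p = 1.17e-09). The difference was -0.67 (SE 0.15, adjusted p = 0.0021) at 6 h, 0.02 (SE 0.15, adjusted p = 0.955) at 12 h, 0.39 (SE 0.15, adjusted p = 0.1) at 24 h and 0.67 (SE 0.15, adjusted p = 0.00169) at 36 h. At 24 h without B12 it was 0.53 (adjusted p = 0.0316), and without A12 and B12, a setting added after the values were seen, it was 0.57 (adjusted p = 0.0368). Both lines were highest at 12 h, at 569.8 ± 116 CPM in KO libraries and 562 ± 16.2 CPM in WT libraries (SD, n = 3). GENCODE 29 places the gene at chr5:138465490-138469315 on the plus strand of GRCh38, which is not the build of the counts.

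EGR1 began lower in KO, and its change from 0 h was larger there. At 6 h it stood 146-fold above 0 h in KO (log2 7.19, SE 0.23, adjusted p = 1.53e-22 by edgeR) and 34.8-fold above 0 h in WT (log2 5.12, SE 0.18, adjusted p = 1.06e-20). The change in KO less that in WT was 2.07 (SE 0.29, adjusted p = 3.9e-05) at 6 h, 2.77 (SE 0.29, adjusted p = 1.04e-07) at 12 h, 3.13 (SE 0.28, adjusted p = 7.86e-09) at 24 h and 3.42 (SE 0.28, adjusted p = 4.85e-10) at 36 h. From 12 to 24 h EGR1 fell in KO (log2 -1.005, SE 0.15, adjusted p = 4.51e-06) and in WT (-1.37, SE 0.15, adjusted p = 2.25e-08).

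EGR2 in mouse T cells is a calcium-dependent gene needed for anergy. In KO libraries EGR2 stood at 0.680, 0 and 0.150 CPM at 0 h, 83.2, 38.0 and 82.3 CPM at 6 h, 132, 68.4 and 63.5 CPM at 12 h, 161, 156 and 261 CPM at 24 h, and 146, 162 and 185 CPM at 36 h. In WT libraries EGR2 stood at 1.05, 0.402 and 1.03 CPM at 0 h, 62.1, 60.2 and 58.7 CPM at 6 h, 188, 174 and 159 CPM at 12 h, 162, 165 and 232 CPM at 24 h, and 195, 161 and 183 CPM at 36 h. The groups overlapped at every time except 12 h, where all KO libraries were lower. The 12 h log2 difference was -0.98 (SE 0.24, edgeR adjusted p = 0.00607), which is 1.97-fold lower in KO. The call rested on B8 and B9, since without B8 or B9 it was -0.81 or -0.77 (adjusted p = 0.057 and 0.0605). At 0, 6, 24 and 36 h the EGR2 differences were -1.39, 0.17, 0.05 and -0.13 (adjusted p = 0.249, 0.771, 0.946 and 0.804). Within KO the step from 6 to 12 h was 0.38 (SE 0.24, adjusted p = 0.387) and EGR2 rose in the step from 12 to 24 h (log2 1.13, SE 0.24, adjusted p = 0.000854). Within WT EGR2 rose in the step from 6 to 12 h (log2 1.52, SE 0.24, adjusted p = 5.56e-05) and the step from 12 to 24 h was 0.10 (SE 0.24, adjusted p = 0.828).

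EGR3 acts with EGR2 in restraining mouse T cells, and its transcript was lower in KO during activation. In KO libraries EGR3 stood at 0, 0.705 and 0 CPM at 0 h, 3.64, 1.53 and 3.36 CPM at 6 h, 8.90, 2.36 and 2.16 CPM at 12 h, 7.40, 7.78 and 10.6 CPM at 24 h, and 10.1, 12.4 and 9.56 CPM at 36 h. In WT libraries EGR3 stood at 0.583, 0.268 and 0.550 CPM at 0 h, 10.1, 9.85 and 10.98 CPM at 6 h, 26.7, 22.6 and 16.3 CPM at 12 h, 15.6, 17.9 and 19.7 CPM at 24 h, and 18.6, 21.3 and 20.5 CPM at 36 h. From 6 h on, every KO library lay below every WT library. The log2 difference was -1.86 at 6 h (SE 0.37, adjusted p = 0.000649 by edgeR), -2.28 at 12 h (SE 0.36, adjusted p = 2.96e-05) and -1.04 at 24 h (SE 0.34, adjusted p = 0.0472), or 3.64-fold, 4.86-fold and 2.06-fold lower in KO. At 36 h it was -0.91 (SE 0.34, adjusted p = 0.0682). The 24 h call needed all 6 libraries, since without A10, A11, A12, B10, B11 or B12 it was -1.12, -1.03, -0.94, -0.94, -0.97 or -1.21 (adjusted p = 0.0637, 0.104, 0.127, 0.16, 0.14 and 0.0557), and with DESeq2 it was -1.07 (adjusted p = 0.138). At 0 h EGR3 had 4 counts in KO, all of them in library B2, and 32 in WT (log2 difference -2.70, SE 1.00, adjusted p = 0.106). Without B2, and so with no count in KO, the 0 h difference was called (adjusted p = 0.0148). In KO, EGR3 was highest at 36 h, with 10.7 ± 1.53 CPM, and in WT at 12 h, with 21.9 ± 5.23 CPM (SD, n = 3).

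EGR4, the EGR factor that lacks the NAB-binding domain, had the lowest mean per kb over the 10 groups. Within single groups it was the lowest only in KO at 0 h, and ARC or NR4A2 was lowest in the others. EGR4 ran between 0 and 3.32 CPM in KO libraries and between 0.0389 and 3.53 CPM in WT libraries. At 0 h KO held 2 counts in all and WT 9, so no fold of EGR4 against 0 h is given for KO. At 6 h EGR4 averaged 2.48 ± 0.727 CPM in KO libraries and 2.15 ± 0.171 CPM in WT libraries (SD, n = 3). The groups overlapped at 6, 24 and 36 h, and at 12 h all KO libraries lay below all WT libraries. The log2 differences of EGR4 were 0.21, -0.81, -0.05 and -0.20 at 6, 12, 24 and 36 h, none of them called by edgeR (SE 0.40, 0.41, 0.42 and 0.43, adjusted p = 0.836, 0.21, 0.966 and 0.832).

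NAB1, a corepressor of EGR factors, was already expressed at rest and was higher in KO late in activation. In KO libraries NAB1 stood at 22.7, 21.7 and 21.2 CPM at 0 h, 47.5, 51.6 and 55.6 CPM at 6 h, 37.5, 41.4 and 47.6 CPM at 12 h, 41.8, 40.6 and 50.1 CPM at 24 h, and 44.1, 42.9 and 47.1 CPM at 36 h. In WT libraries NAB1 stood at 21.0, 22.4 and 19.7 CPM at 0 h, 39.1, 40.1 and 37.9 CPM at 6 h, 48.1, 45.9 and 52.3 CPM at 12 h, 25.5, 29.6 and 30.1 CPM at 24 h, and 27.4, 27.8 and 20.5 CPM at 36 h. The groups overlapped at 0 h and 12 h, and all KO libraries lay above all WT libraries at 6, 24 and 36 h. NAB1 was 1.56-fold higher in KO at 24 h (log2 0.64, SE 0.12, adjusted p = 0.000407 by edgeR) and 1.78-fold higher at 36 h (log2 0.83, SE 0.12, adjusted p = 7.74e-06). At 6 h the difference was 0.40 (SE 0.12, adjusted p = 0.0237), and without A4, A5, A6 or B6 it was 0.41, 0.42, 0.38 or 0.35 (adjusted p = 0.0714, 0.0581, 0.0928 and 0.117). At 0 h and 12 h the differences were 0.06 (adjusted p = 0.843) and -0.21 (adjusted p = 0.266). From 12 to 24 h NAB1 fell in WT (log2 -0.78, SE 0.12, adjusted p = 1.24e-05), and in KO the step was 0.07 (SE 0.12, adjusted p = 0.795). The change from 0 h in KO less that in WT was 0.77 (SE 0.17, adjusted p = 0.00403) at 36 h and 0.58 (SE 0.17, adjusted p = 0.0572) at 24 h, where without A12 it was 0.63 (adjusted p = 0.0331).

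NAB2, the corepressor whose gene EGR factors induce, was not called between genotypes at any time by edgeR. In KO libraries NAB2 stood at 3.91, 1.76 and 4.43 CPM at 0 h, 11.1, 19.3 and 14.6 CPM at 6 h, 19.1, 16.2 and 20.0 CPM at 12 h, 27.2, 26.0 and 30.6 CPM at 24 h, and 28.1, 35.1 and 35.1 CPM at 36 h. In WT libraries NAB2 stood at 3.88, 3.35 and 5.98 CPM at 0 h, 9.43, 13.6 and 9.96 CPM at 6 h, 25.4, 24.4 and 20.5 CPM at 12 h, 20.5, 19.3 and 23.1 CPM at 24 h, and 32.8, 31.8 and 30.2 CPM at 36 h. All KO libraries were below all WT libraries at 12 h and above them at 24 h, and the groups overlapped at 0, 6 and 36 h. The log2 differences were -0.30, 0.45, -0.35, 0.41 and 0.05 at 0, 6, 12, 24 and 36 h (SE 0.23, 0.19, 0.19, 0.19 and 0.19, adjusted p = 0.519, 0.158, 0.248, 0.189 and 0.903). Both lines were highest at 36 h, where NAB2 stood 8.79-fold above 0 h in KO (adjusted p = 8.49e-14) and 6.88-fold above 0 h in WT (adjusted p = 8.97e-13).

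NR4A1 (NUR77) was lower in KO at 4 of 5 times by the test, and its groups did not overlap at any time. In KO libraries NR4A1 stood at 3.44, 1.94 and 2.48 CPM at 0 h, 81.0, 47.0 and 80.2 CPM at 6 h, 23.6, 16.8 and 14.9 CPM at 12 h, 10.9, 6.51 and 16.8 CPM at 24 h, and 17.0, 17.7 and 18.5 CPM at 36 h. In WT libraries NR4A1 stood at 5.32, 4.29 and 5.65 CPM at 0 h, 185, 197 and 181 CPM at 6 h, 73.5, 66.7 and 71.5 CPM at 12 h, 33.2, 39.8 and 63.6 CPM at 24 h, and 50.7, 34.97 and 40.0 CPM at 36 h. Every KO library lay below every WT library of its time. The log2 difference was -1.44 at 6 h (SE 0.22, adjusted p = 2.22e-05 by edgeR), -1.93 at 12 h (SE 0.23, adjusted p = 3.43e-07), -1.99 at 24 h (SE 0.24, adjusted p = 4.35e-07) and -1.24 at 36 h (SE 0.23, adjusted p = 0.00026). These are 2.71-fold, 3.81-fold, 3.96-fold and 2.37-fold lower levels in KO. At 0 h it was -0.91 (SE 0.31, adjusted p = 0.08), and it was called with DESeq2 (adjusted p = 0.0374) and in a fit of the 0 h libraries alone (adjusted p = 0.0345). Both lines were highest at 6 h and fell by 12 h (log2 -1.91 in KO, adjusted p = 5.22e-07, and -1.41 in WT, adjusted p = 4.38e-05). At 6 h NR4A1 stood 24.8-fold above 0 h in KO and 35.8-fold above 0 h in WT, and the difference between these changes was -0.53 (SE 0.38, adjusted p = 0.57). At 24 h that difference in change was -1.08 (SE 0.40, adjusted p = 0.135), and without B12 it was -1.46 (adjusted p = 0.0314).

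NR4A2 (NURR1) had its highest mean at 36 h in both lines. In KO libraries NR4A2 stood at 0.128, 0 and 0.150 CPM at 0 h, 2.72, 0.218 and 2.58 CPM at 6 h, 6.03, 0.481 and 0.108 CPM at 12 h, 7.02, 6.09 and 14.4 CPM at 24 h, and 18.2, 17.8 and 20.6 CPM at 36 h. In WT libraries NR4A2 stood at 0.350, 0 and 0.0733 CPM at 0 h, 1.84, 3.41 and 3.38 CPM at 6 h, 12.8, 11.5 and 8.98 CPM at 12 h, 25.3, 30.6 and 60.2 CPM at 24 h, and 60.8, 53.3 and 58.6 CPM at 36 h. All KO libraries were below all WT libraries at 12, 24 and 36 h, and the groups overlapped at 0 h, where KO had 7 counts and WT 11, and at 6 h. The log2 difference was -2.31 at 12 h (SE 0.57, adjusted p = 0.00621 by edgeR), -2.07 at 24 h (SE 0.50, adjusted p = 0.00543) and -1.61 at 36 h (SE 0.48, adjusted p = 0.0206), or 4.95-fold, 4.20-fold and 3.05-fold lower in KO. At 12 h without B8 it was -1.81 (adjusted p = 0.0521), without B7 it was -5.14 (adjusted p = 3.93e-07), and in a fit of the 12 h libraries alone it was -2.35 (adjusted p = 0.0534). At 24 h DESeq2 gave -2.10 (adjusted p = 0.103). At 36 h without C1, C3, C4, C5 or C6 it was -1.56, -1.59, -1.58, -1.57 or -1.68 (adjusted p = 0.0581, 0.0533, 0.0699, 0.0716 and 0.0576), and DESeq2 gave -1.63 (adjusted p = 0.218). At 0 h and 6 h the NR4A2 differences were -0.51 (SE 1.73, adjusted p = 0.915) and -0.66 (SE 0.62, adjusted p = 0.613).

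NR4A3 (NOR1), the NR4A receptor that does not pair with retinoid X receptors, separated by genotype late. In KO libraries NR4A3 stood at 0.298, 0.705 and 0.188 CPM at 0 h, 28.0, 7.42 and 35.1 CPM at 6 h, 16.3, 6.45 and 4.15 CPM at 12 h, 1.51, 3.08 and 3.26 CPM at 24 h, and 4.92, 4.58 and 3.56 CPM at 36 h. In WT libraries NR4A3 stood at 0.855, 1.07 and 0.220 CPM at 0 h, 26.3, 26.8 and 28.3 CPM at 6 h, 13.8, 13.8 and 8.48 CPM at 12 h, 7.96, 8.03 and 14.2 CPM at 24 h, and 12.2, 14.96 and 14.8 CPM at 36 h. The groups overlapped at 0, 6 and 12 h, and all KO libraries lay below all WT libraries at 24 h and 36 h. NR4A3 was 3.84-fold lower in KO at 24 h (log2 -1.94, SE 0.44, adjusted p = 0.00325 by edgeR) and 3.23-fold lower at 36 h (log2 -1.69, SE 0.42, adjusted p = 0.00482). At 0, 6 and 12 h the differences were -1.05 (SE 0.87, adjusted p = 0.547), -0.21 (SE 0.37, adjusted p = 0.822) and -0.42 (SE 0.40, adjusted p = 0.554). Like NR4A1 it was highest at 6 h in both lines. From 12 to 24 h it fell in KO (log2 -1.78, SE 0.44, adjusted p = 0.00391), though without B7 it was -1.02 (adjusted p = 0.117), and in WT the step was -0.26 (SE 0.40, adjusted p = 0.736).

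ARC, a protein of the neuronal cytoskeleton and synapse, was higher in KO at 6 h and 12 h. In KO libraries ARC stood at 0.0850, 0 and 0.225 CPM at 0 h, 51.3, 49.8 and 50.4 CPM at 6 h, 9.05, 6.88 and 6.37 CPM at 12 h, 0.919, 0.603 and 0.593 CPM at 24 h, and 0.492, 0.103 and 0.542 CPM at 36 h. In WT libraries ARC stood at 0.233, 0.268 and 0.293 CPM at 0 h, 4.60, 5.96 and 1.25 CPM at 6 h, 2.10, 1.01 and 2.97 CPM at 12 h, 0.943, 1.72 and 0.254 CPM at 24 h, and 0.453, 0.215 and 0.660 CPM at 36 h. The KO libraries of 6 h lay close together and far above all others, and those of 12 h were also above all WT libraries. At 0 h all KO libraries were below all WT libraries, and at 24 h and 36 h the groups overlapped. ARC was 12.8-fold higher in KO at 6 h (log2 3.68, SE 0.37, adjusted p = 8.13e-09 by edgeR) and 3.74-fold higher at 12 h (log2 1.90, SE 0.39, adjusted p = 0.00114). At 24 h and 36 h the differences were -0.41 (SE 0.56, adjusted p = 0.753) and -0.33 (SE 0.67, adjusted p = 0.829). At 0 h ARC rested on 8 counts in KO and 16 in WT (log2 difference -0.87, SE 0.93, adjusted p = 0.659). The change to 6 h in KO less that in WT was 4.55 (SE 1.02, adjusted p = 0.00804), though without A3 it was 4.42 (adjusted p = 0.0665). ARC fell from 6 to 12 h in KO (log2 -2.76, SE 0.35, adjusted p = 1.1e-06) and from 12 to 24 h (log2 -3.39, SE 0.45, adjusted p = 6.03e-07). In WT these steps were -0.98 (SE 0.40, adjusted p = 0.121), for which without A6 it was -1.42 (adjusted p = 0.0147), and -1.08 (SE 0.49, adjusted p = 0.15).

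Whether the response to activation itself differed was tested as the change from 0 h in KO less that in WT. Of 10 members edgeR called 2 at 6 h (EGR1 and ARC), 1 at 12 h (EGR1), 1 at 24 h (EGR1) and 2 at 36 h (EGR1 and NAB1), each of them larger in KO. Of all tested genes 3.01%, 2.06%, 3.54% and 9.33% were called, with 1.64%, 1.42%, 1.84% and 4.71% larger in KO and 1.37%, 0.65%, 1.7% and 4.62% smaller. The joint test over the 4 later times called 3 members, EGR1 (adjusted p = 1.78e-09), ARC (5.01e-05) and NAB1 (0.000255), beside 9.84% of all genes. EGR2, EGR3, EGR4, NR4A1, NR4A2, NR4A3 and NAB2 did not pass it (adjusted p = 0.0649, 0.154, 0.451, 0.152, 0.558, 0.112 and 0.104). Leaving out 1 library brought EGR2 past the threshold without A12, B1, B5 or B7 (adjusted p = 0.0332, 0.0313, 0.00672 and 0.00244), EGR3 without B2 or B7 (adjusted p = 0.0404 and 0.000674), NR4A1 without B12 (adjusted p = 0.0252), NR4A2 without B7 (adjusted p = 0.00273), NR4A3 without B5 or B9 (adjusted p = 0.00688 and 0.0442) and NAB2 without B4 (adjusted p = 0.0499). All these tests share the 0 h libraries, in which EGR2, EGR3, NR4A2 and NR4A3 had 20, 4, 7 and 16 counts in KO and 58, 32, 11 and 36 in WT. Of the 20 EGR2 counts in KO, 16 were in B1.

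Between neighbouring times, NR4A1 fell after 6 h in both lines. NR4A3 was called lower there too, but its calls turned on single libraries, as given below. From 6 to 12 h edgeR called 1 member higher (EGR1) and 3 lower (NR4A1, NR4A3 and ARC) in KO, beside 5.08% and 5.75% of all genes (10.8% in all). In WT 5 were higher (EGR1, EGR2, EGR3, NAB2 and NR4A2) and 2 lower (NR4A1 and NR4A3), beside 3.85% and 5.64% (9.49% in all). From 12 to 24 h 3 were higher (EGR2, NAB2 and NR4A2) and 3 lower (EGR1, NR4A3 and ARC) in KO, beside 6.28% and 8.2% (14.5% in all). In WT 1 was higher (NR4A2) and 2 lower (EGR1 and NAB1), beside 7.6% and 7.25% (14.9% in all). From 24 to 36 h edgeR called 0 members in KO, beside 4.07% and 3.35% (7.43% in all), and 0 in WT, beside 4.62% and 2.57% (7.2% in all). At an unadjusted p under 0.05 that last step had 2 members in KO and 2 in WT, beside 20.5% and 19.4% of all genes. DESeq2 called 0 in KO and 1 in WT, beside 9.23% and 8.83%. Both counts are near these shares.

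Several of these steps turned on single libraries. From 6 to 12 h in WT, EGR3 (log2 1.08, edgeR adjusted p = 0.0351) was not called without A4, A5, A6, A7 or A8 (adjusted p = 0.103, 0.11, 0.0877, 0.143 and 0.104), NR4A2 (log2 1.95, adjusted p = 0.0204) was not called without A4, A5, A6, A7 or A8 (adjusted p = 0.1, 0.0504, 0.0532, 0.0614 and 0.0589), and NR4A3 (log2 -1.17, adjusted p = 0.0498) was not called without A4, A5, A6, A7, A8 or A9 (adjusted p = 0.0879, 0.0935, 0.112, 0.0802, 0.0967 and 0.175). In KO, NR4A3 in that step (log2 -1.38, adjusted p = 0.0166) was not called without B4, B6, B8 or B9 (adjusted p = 0.0755, 0.169, 0.109 and 0.134). From 12 to 24 h in KO, NAB2 (log2 0.60, adjusted p = 0.0265) was not called without B8, B10 or B12 (adjusted p = 0.136, 0.0555 and 0.0962), and NR4A2 (log2 2.04, adjusted p = 0.0112) was not called without B8, B9 or B12 (adjusted p = 0.0866, 0.0709 and 0.0951). NR4A2 in WT (log2 1.80, adjusted p = 0.0106) was not called without A9 or A12 (adjusted p = 0.0503 and 0.0742). EGR3 in KO (0.94, adjusted p = 0.0778) was called without B7 (adjusted p = 5.23e-05), and NR4A1 in the same step was called without B9 or B12 (adjusted p = 0.0444 and 0.00375) in KO, where it was -0.69 (adjusted p = 0.0516), and without A12 (adjusted p = 0.00554) in WT, where it was -0.63 (adjusted p = 0.0535). From 24 to 36 h NR4A1 in KO (0.63, adjusted p = 0.115) was called without B12 (adjusted p = 0.00986). Against 0 h, ARC at 24 h was called in KO (log2 2.26, adjusted p = 0.0234) but not without B1 or B10 (adjusted p = 0.117 and 0.087), and in WT (log2 1.80, adjusted p = 0.0342) but not without A1, A2, A3, A10 or A11 (adjusted p = 0.116, 0.0581, 0.0792, 0.0742 and 0.272).

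In KO, 1 library of 12 h and 1 of 6 h stood apart from their groups in the same members. At 12 h library B7 was above B8 and B9 in EGR2, EGR3, NR4A1, NR4A2 and NR4A3 and below both in EGR1. At 6 h library B5 was below B4 and B6 in EGR2, EGR3, NR4A1, NR4A2 and NR4A3 and above both in EGR1. For NR4A2 this meant 6.03 CPM in B7, 0.481 CPM in B8 and 0.108 CPM in B9 at 12 h, and 2.72 CPM in B4, 0.218 CPM in B5 and 2.58 CPM in B6 at 6 h. ARC followed the labelled times, with 9.05 CPM in B7 and 49.8 CPM in B5. Over all tested genes the log2 levels of B7 correlated at 0.974 and 0.977 with its own group and at 0.975 with B4 of 6 h. B5 correlated at 0.977 and 0.978 with its own group and at 0.974 with B9 of 12 h. For 9 other libraries too an outside correlation exceeded the lowest within the group. These were A1, A3, B1 and B3 of 0 h, A10, A11, A12 and B12 of 24 h, and C1 of 36 h. Among the libraries of 6 and 12 h only B7 did so. B5 and B7 were kept as labelled, and what sets them apart was not tested. Leaving out B5 and B7 was a setting added after the values were seen. The KO to WT log2 difference of NR4A3 at 12 h was then -1.16 (edgeR adjusted p = 0.00813), and B7 was the highest KO library there. EGR3 at 36 h was at -0.91 (adjusted p = 0.00421) and NR4A1 at 0 h at -0.90 (adjusted p = 0.0392). The groups of 36 h and 0 h hold neither library. Their differences hardly moved from the main fit, and the lower p came with the change in the shared fit. NR4A2 at 12 h against 6 h in KO was -3.10 without B5 and B7. All libraries gave 0.30 (adjusted p = 0.85), and leaving out B7 alone gave -2.55 (adjusted p = 0.0204). B7 was the highest library of 12 h in NR4A2 and B5 the lowest of 6 h. Leaving them out therefore lowers this step by the choice of libraries, and the lower value is no test of it. NR4A2 at 12 h against 0 h in KO was 4.10 (adjusted p = 0.00379), and without B7 it was 1.24 (adjusted p = 0.538).

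**Figure D4:**
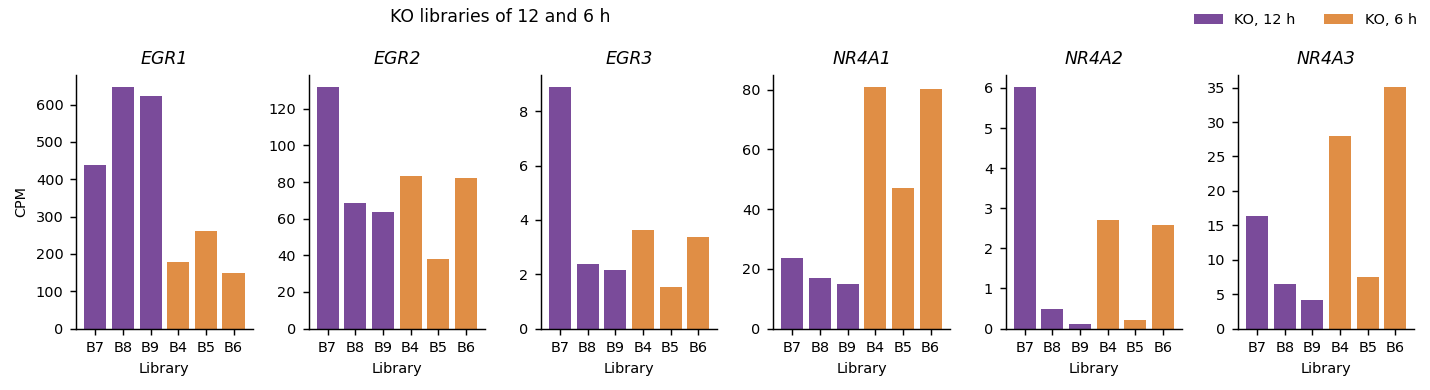
CPM of EGR1, EGR2, EGR3, NR4A1, NR4A2 and NR4A3 in the 3 KO libraries of 12 h (B7, B8 and B9) and the 3 of 6 h (B4, B5 and B6), 1 bar per library, each panel on its own axis. B7 stands above B8 and B9 in all but EGR1, B5 stands below B4 and B6 in all but EGR1, and both go the other way in EGR1.

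Genes of the surrounding pathways were counted from lists in the same fits. Among 10 genes known to be induced through EGR factors, 5 were higher and 0 lower in KO at 6 h, where 5.21% of all tested genes were higher and 4.76% lower, with a median log2 difference of 0.92 beside -0.01 for all tested genes. TNF stood at 32.8 ± 6.77 CPM in KO libraries and 5.54 ± 1.07 CPM in WT libraries (SD, n = 3, log2 difference 2.56, SE 0.23, adjusted p = 6.31e-10 by edgeR). The cell cycle inhibitor CDKN1A (1.74, SE 0.17, adjusted p = 6.95e-09) and the death ligand FASLG (2.95, SE 0.42, adjusted p = 5.43e-06) were higher as well. At 0 h 2 of these genes were already higher in KO and 0 lower, beside 2.96% and 3.11% of all genes. The change from 0 h to 6 h was called larger in KO for 3 and smaller for 1, beside 1.64% and 1.37%. At 12, 24 and 36 h 7, 7 and 7 of these genes were higher in KO and 1, 0 and 0 lower. Of all genes 6.07%, 4.97% and 6.95% were higher and 5.52%, 4.76% and 6.52% lower. In WT 9 of them rose by 6 h and 0 fell, beside 11.8% and 10.5% of all genes, with CDKN1A at 3.55 (adjusted p = 5.02e-15), TNFSF10 at 2.97 (adjusted p = 3.47e-11) and CD44 at 4.50 (adjusted p = 3.03e-10) on the log2 scale.

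Of 14 targets linked to EGR2 and EGR3 in anergic mouse T cells, 11 passed the filter, and RNF128, NRGN and LAG3 did not. At 0 h 0 of the 11 were higher and 1 lower in KO, beside 2.96% and 3.11% of all genes. The change from 0 h to 6 h was called larger in KO for 2 and smaller for 1, beside 1.64% and 1.37%. At 6 h 4 were higher and 1 lower in KO (median 0.13), beside the same 5.21% and 4.76% of all genes. CRTAM, an adhesion receptor, stood at 104 ± 39.1 CPM in KO libraries and 15.2 ± 2.81 CPM in WT libraries (SD, n = 3, log2 difference 2.77, SE 0.30, adjusted p = 5.06e-08 by edgeR). The semaphorin receptor NRP1 was higher in KO (0.81, SE 0.15, adjusted p = 0.000381), and CBLB, a ubiquitin ligase that restrains T cell receptor signalling, was lower (-0.92, SE 0.17, adjusted p = 0.000204). In WT 8 of the 11 rose by 6 h and 2 fell, beside 11.8% and 10.5% of all genes, with NRP1 at 3.38 (adjusted p = 4.95e-16), CBLB at 2.17 (adjusted p = 9.69e-12) and CRTAM at 6.00 (adjusted p = 7.75e-11).

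Of 9 genes linked to NR4A receptors in exhausted mouse T cells, 8 passed the filter, and LAG3 did not. At 0, 6, 12, 24 and 36 h 1, 1, 0, 0 and 0 were higher in KO and 2, 2, 4, 2 and 2 lower, with medians of -0.31, -0.43, -0.95, -0.31 and -0.49. Of all genes 2.96%, 5.21%, 6.07%, 4.97% and 6.95% were higher and 3.11%, 4.76%, 5.52%, 4.76% and 6.52% lower. In the difference of the change from 0 h 0 of the 8 were called larger and 0 smaller in KO at 6 h, and likewise at 12, 24 and 36 h. The transcription factor TOX stood at 138 ± 42.8 CPM in KO libraries and 252 ± 2.72 CPM in WT libraries at 6 h (SD, n = 3, log2 difference -0.87, SE 0.14, adjusted p = 5.67e-05 by edgeR). Its relative TOX2 was lower (-2.01, SE 0.37, adjusted p = 0.000295), and the SLAM family receptor CD244 was higher (0.66, SE 0.17, adjusted p = 0.00845), though for CD244 without A5 or B5 it was 0.60 or 0.44 (adjusted p = 0.0561 and 0.119). PDCD1, which encodes PD-1, had a difference of 0.99 (SE 0.36, adjusted p = 0.083). It was called at 1.28 without B5 (adjusted p = 0.0236) and at 1.27 without B5 and B7 (adjusted p = 1.96e-08), though B7 is of 12 h and not in this comparison. It was also called with no filter (0.996, adjusted p = 2.43e-11), in the 6 h libraries alone (0.98, adjusted p = 0.0235) and with the replicate number as a block (0.94, adjusted p = 0.0437). In these 3 settings the p moved while the difference stayed near that of the main fit, so they add no larger difference. In WT 4 of the 8 rose by 6 h and 1 fell, beside 11.8% and 10.5% of all genes, with PDCD1 at 3.60 (adjusted p = 5.98e-07), TOX at 0.70 (adjusted p = 0.000346) and HAVCR2 at 1.90 (adjusted p = 0.000455). Of the retinoid X receptors, partners of NR4A1 and NR4A2, RXRG did not pass the filter. At 6 h the KO to WT differences were 1.23 (SE 0.44, adjusted p = 0.0717) for RXRA and 0.03 (SE 0.15, adjusted p = 0.951) for RXRB, and in a fit of the 6 h libraries alone RXRA was called (adjusted p = 0.0315). In WT at 6 h against 0 h RXRB was at 0.43 (adjusted p = 0.0427), and without A2, A3, A4, A5 or A6 it was 0.25, 0.47, 0.46, 0.41 or 0.41 (adjusted p = 0.328, 0.0767, 0.0651, 0.107 and 0.117), while RXRA was at -1.11 (adjusted p = 0.0689).

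Upstream, 1 of 6 genes of the serum response factor group was higher in KO at 6 h and 0 were lower, beside 5.21% and 4.76% of all genes. SRF itself stood at 17.4 ± 2.58 CPM in KO libraries and 11.7 ± 1.48 CPM in WT libraries (SD, n = 3, log2 difference 0.58, SE 0.15, adjusted p = 0.0109 by edgeR), and without A5 or B4 it was 0.50 or 0.48 (adjusted p = 0.0816 and 0.0905). The SRF coactivator MKL1 and the ETS factor ELK3 had differences of -0.30 (adjusted p = 0.115) and -0.30 (adjusted p = 0.394). In WT 3 of the 6 rose by 6 h, beside 11.8% of all genes, ELK4 at 0.61 (adjusted p = 0.000521), ELK1 at 0.53 (adjusted p = 0.00207) and MKL1 at 0.49 (adjusted p = 0.00292), and for MKL1 without A2 it was 0.38 (adjusted p = 0.0555). Of 18 other immediate early genes, 7 were higher and 0 lower in KO at 6 h (median 0.38), beside 5.21% and 4.76% of all genes. KLF10 (1.42, SE 0.16, adjusted p = 6.23e-08), the NF-kB inhibitor NFKBIA (1.09, SE 0.14, adjusted p = 1.32e-06) and MYC (1.60, SE 0.35, adjusted p = 0.00194) were among the higher ones. Without B4, 4 of the 18 were called, and the share of all genes in that setting is not given here. At 0 h 3 of the 18 were already higher and 1 lower in KO (median 0.19), beside 2.96% and 3.11% of all genes. The change from 0 h to 6 h was called larger in KO for 5 of the 18 and smaller for 2, beside 1.64% and 1.37%. In WT 13 of them rose by 6 h and 1 fell (median 1.52), beside 11.8% and 10.5% of all genes, with IER3 at 5.32 (adjusted p = 2.05e-16), NFKBIA at 2.89 (adjusted p = 3.91e-16) and the survival factor MCL1 at 1.52 (adjusted p = 8.36e-15).

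The genes most like each member in pattern were taken over the 10 group means of log2 CPM from 9815 candidates with a mean of at least 10 CPM in some group, by Pearson r and as a description of means that share a time course. For NR4A1 they were NR4A3 (Pearson r = 0.96) and the chemokine gene IL8 (0.96), and for NR4A3 they were IL8 (0.98) and NR4A1 (0.96), so these members had each other among their nearest genes. For EGR2 they were the early activation receptor CD69 (0.99) and the interleukin 21 receptor IL21R (0.99). For EGR1 they were TRAV17 and CD82 (both 0.98), for EGR3 KCNK6 and RRN3P3 (0.99 and 0.97), for EGR4 RNFT1 and MAST4 (both 0.99), and for NAB1 DYRK3 and ASAP1 (0.97 and 0.96). For NAB2 they were DFNA5 and GBP2 (0.99 and 0.98), for NR4A2 CLSTN3 and TMEM86A (both 0.97), and for ARC ADORA2B and PPP1R15A (0.96 and 0.95). By rank the order differs, with a Spearman rho of 0.73 for TRAV17 with EGR1, 0.79 for IL21R with EGR2 and 0.84 for ADORA2B with ARC, which puts them at rank 198, 503 and 178 among the candidates.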

How the data were processed

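RNA of 30 libraries was measured, and the authors deposited expected counts for each symbol in a file for every library. Cutadapt, STAR, DESeq2 and the builds GRCh37 and hg19 are named, without versions, per the submitters' processing notes, and the counting program is not given in the sources used here. Values that were not whole (195 symbols, 0.177% of values, no member) were rounded. A deposited series table with identical values was left out.

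Tests used edgeR 4.0.16 in R 4.3.3, with filterByExpr (minimum count 10), TMM and the quasi-likelihood F test in 1 fit with a term for each of 10 groups. Benjamini-Hochberg adjustment ran over all 21554 symbols in each of 24 comparisons, and "called" means an adjusted p under 0.05. The SE is the log2 change divided by the square root of F. Alternatives were DESeq2 1.42.0, its size factors in edgeR, no filter, only the groups compared, the replicate number as a block, leaving out the 3 shallowest libraries or any 1 library, and, added later, leaving out B5 and B7 or A12 and B12. A group with 1 to 3 counts gets no fold. Depth was 5.64 to 28.2 M counts, and precision from counting does not cover differences between cultures. Scripts were tested on simulated data.

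The rule names all 10 members in every comparison, and the text gives some that were not called only through the counts. From each pathway list the text names up to 3 genes with the smallest p in KO against WT at 6 h and in WT at 6 h against 0 h. Members and lists were chosen with earlier results of these data known, so their counts are descriptions. Gene positions and exon lengths come from GENCODE 29 on GRCh38, matched by symbol, and promoters from RefSeq.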

Additional observations from a re-analysis of the deposited data

Results flagged for a closer look

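In 6 cases the change from 0 h differed between KO and WT by a test of that difference. EGR1 gave 4 of them, with a change in KO less that in WT of 2.07 (SE 0.29, adjusted p = 3.9e-05) at 6 h, 2.77 (SE 0.29, adjusted p = 1.04e-07) at 12 h, 3.13 (SE 0.28, adjusted p = 7.86e-09) at 24 h and 3.42 (SE 0.28, adjusted p = 4.85e-10) at 36 h on the log2 scale, by edgeR. All 4 share the 0 h libraries, where EGR1 averaged 1.27 ± 0.187 CPM in KO and 9.24 ± 1.34 CPM in WT (SD, n = 3). For ARC the same measure was 4.55 (SE 1.02, adjusted p = 0.00804) at 6 h, with 8 counts in KO and 16 in WT at 0 h. For NAB1 it was 0.77 (SE 0.17, adjusted p = 0.00403) at 36 h.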

How the results depend on the processing

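Over 24 comparisons, the count of members called stayed within 1.5 times the reported count in 128 of 151 values under other settings and in 180 of 192 with 1 library left out. The same count over all genes moved by over 1.5 times in 51 of 343 values. KO against WT at 0 h (1 member) gave 3 with DESeq2, 4 with no filter, 2 with the compared groups alone, 2 without the 3 libraries under 10 M counts and 3 without B5 and B7. All genes called there were 1309 of 21554 in the main fit, 1699 with DESeq2 and 1387 of 50735 with no filter. KO against WT at 24 h (5) gave 3 with DESeq2, while all genes called were 2097 in the main fit and 2427 with DESeq2. The difference in change to 24 h (1) gave 2 with DESeq2, 2 with its size factors in edgeR, 2 without B5 and B7 and 3 with no filter, and that to 12 h (1) gave 3 with no filter. All genes called for 24 h were 763 in the main fit, 1085 with DESeq2, 780 with its size factors and 939 of 50735 with no filter. For 12 h they were 445 in the main fit and 665 of 50735 with no filter. The joint test (3) gave 9 with no filter and 8 without B5 and B7, while all genes called were 2121 in the main fit and 2817 of 50735 with no filter. WT at 24 h against 12 h (3) gave 5 with no filter, while all genes called were 3201 in the main fit and 3098 of 50735 with no filter. At 36 h against 24 h, KO (0) gave 3 with no filter, 1 with the compared groups alone and 1 without B5 and B7, and WT (0) gave 2, 1 and 1 in the same order and 1 with DESeq2. All genes called in KO were 1601 in the main fit and 1589 of 50735 with no filter. In WT they were 1551 in the main fit, 1545 of 50735 with no filter and 1903 with DESeq2. All-gene counts under the remaining settings are not given here. B5 and B7 were picked from the members' own values, so counts without them are no independent check. The cause of these moves was not tested.

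All-gene counts with 1 library left out are not given here, so the ranges below describe the members alone. With 1 library left out, counts of members called ran from 1 to 2 for KO against WT at 0 h, 3 to 5 at 12 h and 4 to 5 at 6, 24 and 36 h. They ran from 4 to 6 for WT at 12 h against 6 h, 3 to 5 for KO at 12 h against 6 h, 4 to 6 for KO at 24 h against 12 h and 0 to 1 for KO at 36 h against 24 h. The difference in change ran from 1 to 2 to 6 h and from 1 to 2 to 24 h, and the joint test from 3 to 6. NR4A2 in KO at 12 h against 6 h ran from -2.55 to 0.84 with 1 library left out, the lowest without B7. It was -3.10 without B5 and B7, which were picked from such values.

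KO and WT titles share numbers up to 24 h, and the main fit did not use them. With group means taken out, 19 of 24 libraries correlated best with the library of the other genotype that shared their number. Each had 3 libraries of the other genotype at its time to match. Pair correlations ran from -0.0150 to 0.126, and 1 of 12 was over 0.1, that of A12 and B12. A12 and B12 were each the highest of their group in EGR2, EGR3, NR4A1, NR4A2, NR4A3, NAB1 and NAB2, but not both in EGR1, EGR4 or ARC. The labels do not say whether a shared number marks paired samples, so a pairing is not excluded. With the replicate number as a block, the count was 2 for KO against WT at 0 h and 2 for the difference in change to 24 h. All genes called were then 1756 and 1137 of 21004, and in the main fit 1309 and 763 of 21554. No numbers are shared at 36 h. Depth limits EGR2, EGR3, EGR4, NR4A2, NR4A3 and ARC at 0 h, with 2 to 58 counts in a group.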
